A study of Mus musculus with 2 samples.

Results

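The genes described are 37 antioxidant and thiol redox genes, taken from a list by symbol: the glutathione peroxidases, superoxide dismutases, thioredoxins and peroxiredoxins, the enzymes that make and recycle glutathione and NADPH, the haem oxygenases and quinone reductases, the glutaredoxins, and the regulators NRF2 and KEAP1. All 37 were found among the 38924 genes of the deposited tables, and each belonged to the 14768 genes whose counts in the libraries summed to 100 or more. The RNA came from islets of the pancreas, the clusters of its hormone-secreting cells, taken from male mice aged 10 weeks of 2 inbred strains, with no treatment of the animals named. The first was C57BL/6J (B6; the strain label reads C57BL/6 and the protocol C57BL/6J), the strain of the mouse reference genome, and the other was CAST/EiJ (CAST), inbred from wild-caught mice of the subspecies castaneus. Islets of 2 mice were pooled within each strain and 250 islets of each pool went to RNA. Islets of both strains were held in buffer with 16.7 mM glucose during purification. There was 1 library per strain and no replicate, so every ratio compares these libraries and no test between strains was possible.

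Cells remove superoxide and peroxides through enzymes that hand electrons on from NADPH. Glutathione peroxidases spend glutathione, which glutathione reductase restores, and peroxiredoxins spend thioredoxin, which thioredoxin reductases restore. The transcription factor NRF2, held back by KEAP1 until the cell meets oxidants or electrophiles, switches on many of these genes. Pancreatic beta cells are known for low catalase and glutathione peroxidase activity, and TXNIP, which binds thioredoxin, is known as a gene that glucose induces strongly in islets.

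The libraries held 76600903 expected counts in B6 and 104324631 in CAST. All 6 beta cell markers were present, and the beta list took 17.5% of counts in B6 and 22.9% in CAST, against 5.13% and 3.58% for the alpha list. Markers of pancreatic acinar cells, the enzyme-secreting cells around the islets, were at least 2-fold higher in CAST for 10 of 10 genes, with a summed share of 0.597% in B6 and 1.998% in CAST. The stellate and fibroblast list was at least 2-fold higher in CAST for 5 of 8 genes, with summed shares of 0.00887% and 0.0158%. Leukocyte markers were at least 2-fold apart in 0 of 6 measured genes, at 0.00446% and 0.00379% of counts. No marker in these 5 lists was at 0 in either library. Of the further lists, 2 of 5 measured duct genes and 1 of 7 endothelial genes were at least 2-fold higher in CAST. For delta and PP cells, other hormone cells of the islet, 1 of 4 genes was at least 2-fold higher in B6. The erythroid list had 1 of 4 measured genes past 2-fold in each direction. The part of these cell types in the ratios below was not tested, and in whole islets fewer cells of a type and less RNA per cell cannot be told apart.

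Most of the redox genes lay close together in the 2 libraries, and 3 stood apart. Nqo1, the quinone reductase used as a standard readout of NRF2 activity, was 2.73-fold higher in CAST. Txnip was 2.12-fold and Gpx3, the secreted glutathione peroxidase, 2.10-fold higher in B6. The other 34 genes were within 2-fold of equality. Thus 1 of 37 genes was at least 2-fold higher in CAST, where 7.18% of all 14768 genes were, and 2 of 37 were at least 2-fold higher in B6, where 5.99% of all genes were. Ratios are given as the log2 ratio of CAST over B6 of counts scaled with TMM, a scaling that sets the bulk of genes level between libraries, with an exact 95% interval that covers counting error only.

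The ratios of the whole set leaned slightly to CAST. The median log2 ratio was 0.18 over the 37 genes and 0.02 over all genes, and 27 of 37 genes lay above the median of all genes. The counting interval lay above 0 for 22 genes, below 0 for 7 and across 0 for 8. Over all 14768 genes it lay above 0 for 6002, below 0 for 5619 and across 0 for 3147. Against 0 itself the direction of many genes turned with the scale: 28 of 37 were above 0 with TMM, 19 with plain total counts and 13 in TPM, the length-corrected transcript abundance, while 27 lay above the median of all genes on each of these scales. TPM divides by transcript length and is the scale used below to set the level of a gene beside that of another.

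**Figure D1:**
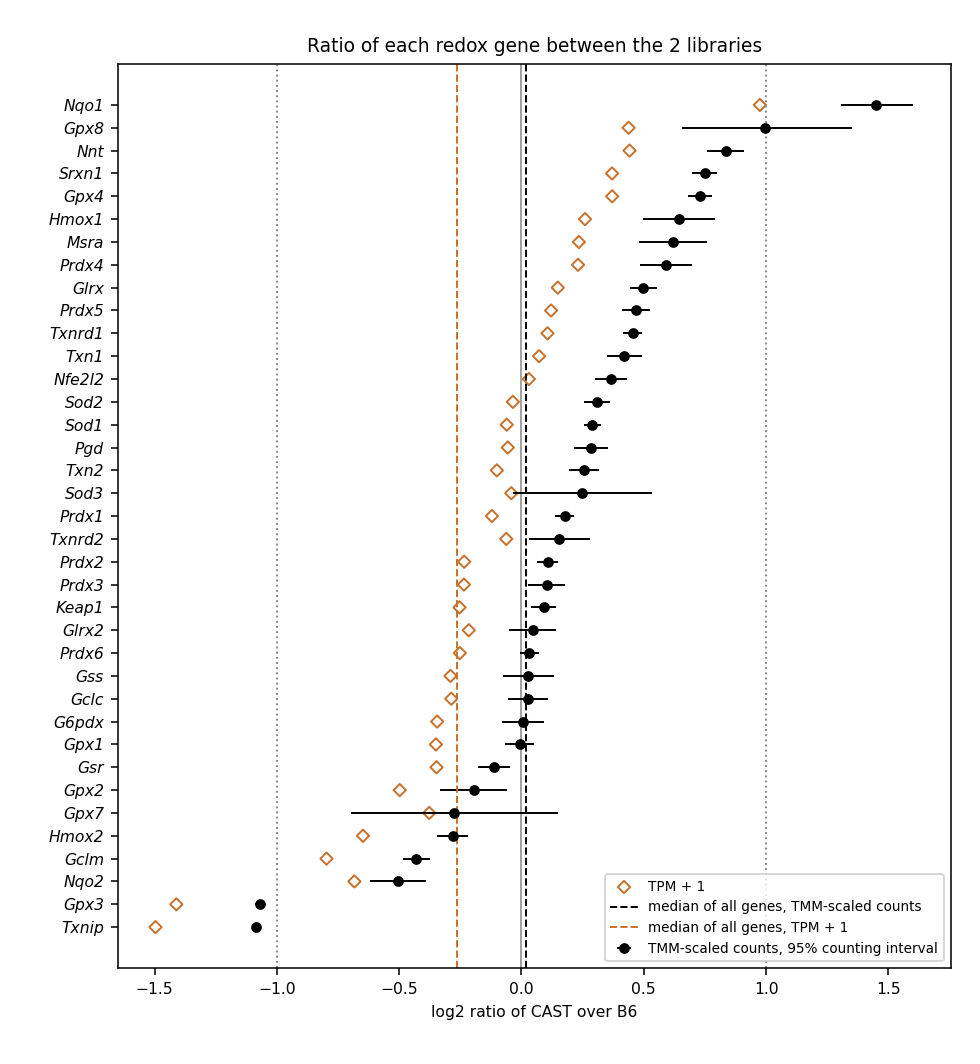
Log2 ratio of CAST over B6 for each of the 37 genes (x axis), ordered by ratio: black points are TMM-scaled counts, with 0.5 added before scaling and their exact 95% counting interval, and open diamonds are TPM with 1 added to each library. Dotted lines mark 2-fold and dashed lines the median of all genes on each scale; Nqo1 lies past 2-fold in CAST on counts and just under it with TPM + 1, and Gpx3 and Txnip lie past 2-fold in B6 on both.

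In level, Sod3 was lowest in both libraries, at 0.783 TPM in B6 and 0.732 TPM in CAST, and the highest was Gpx3 in B6 at 673 TPM and Sod1 in CAST at 279 TPM. A level of 1 TPM or more was reached by 36 genes in B6 and 35 in CAST, and 100 TPM by 4 in B6 and 5 in CAST. The median level was 21.96 TPM in B6 and 21.8 TPM in CAST. The order of levels was close in the libraries, with a Spearman correlation of 0.974 across the 37 genes, which share both libraries and the same transcript lengths. Gpx3 and Txnip led in B6 and held 48.4% of the summed TPM of the set there, against 26.4% in CAST.

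These 2 genes carried much of the total. In B6 all 37 genes took 0.373% of counts, with an exact interval of 0.372% to 0.375%. In CAST they took 0.261%, with an interval of 0.260% to 0.262%. Without Gpx3 and Txnip, a choice made after the values were seen, the other 35 genes took 0.160% in B6 and 0.171% in CAST. Their summed level was then 1347 TPM in B6 and 1285 TPM in CAST, against 2610 and 1745 TPM with them.

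**Figure D2:**
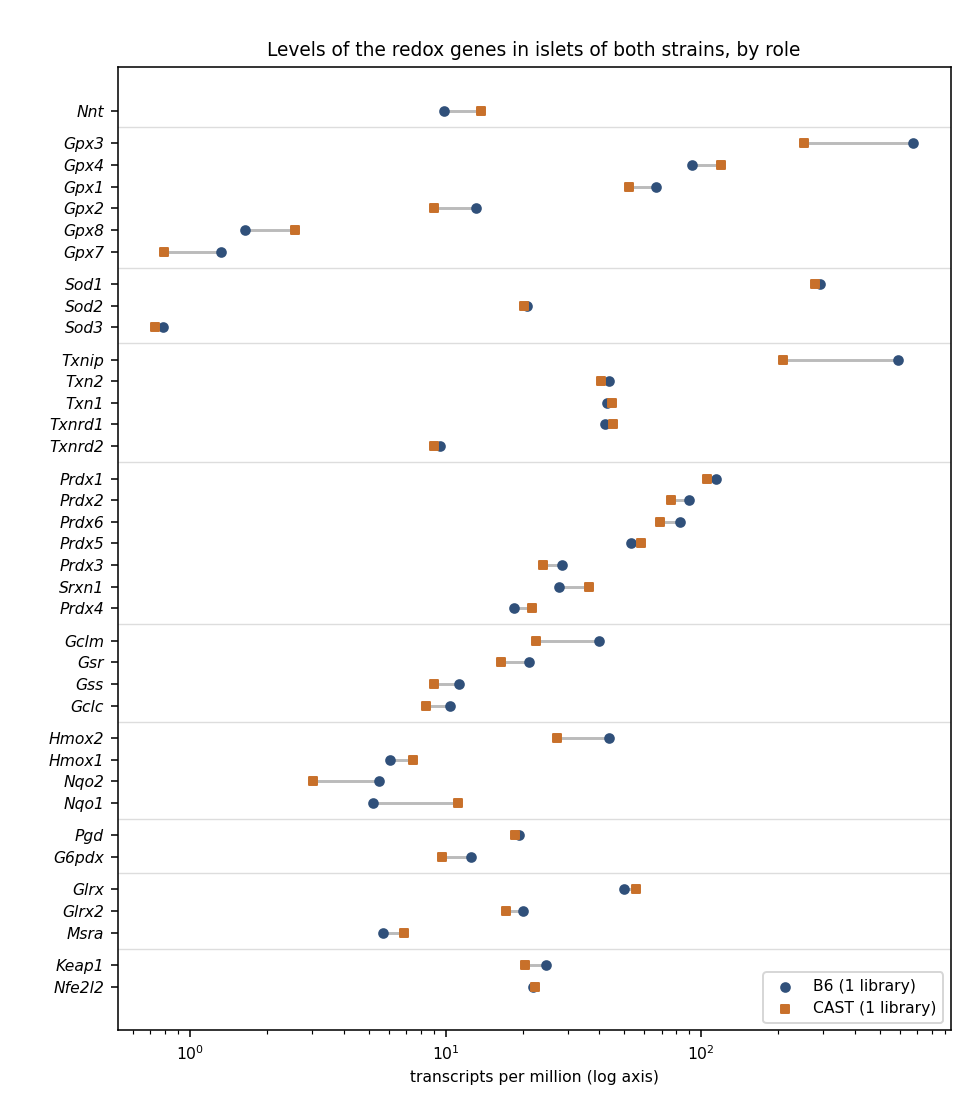
Level of each gene in TPM (log axis) in B6 (circles) and CAST (squares), 1 library each, grouped by role from the transhydrogenase Nnt at the top to NRF2 (Nfe2l2) and Keap1 at the bottom; grey lines join the libraries. The long lines of Gpx3 (673 to 252 TPM) and Txnip (590 to 208 TPM) stand out, while most other pairs of symbols lie near each other.

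Nnt encodes the nicotinamide nucleotide transhydrogenase of the inner mitochondrial membrane, which makes NADPH from NADH with the proton gradient. It lies at chr13:119335448-119408997 on the minus strand (GRCm38). C57BL/6J mice are known to carry a deletion of internal Nnt exons. The reference genome comes from this strain, so the transcripts annotated on it lack those exons and reads of them from CAST have no transcript of this annotation to match. How far this touched the counts was not tested. Nnt had 2097 counts in B6 and 4571 in CAST, a log2 ratio of 0.83 (interval 0.76 to 0.91) or 1.78-fold higher in CAST. In TPM it stood at 9.85 in B6 and 13.7 in CAST. The nearest genes with enough counts on either side, Paip1 at 19.6 kb and Mrps30 at 948 kb, had log2 ratios of 0.13 and 0.07.

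The annotation used here holds 5 Nnt transcripts under the gene ID of the tables, and a further gene ID named Nnt had no row in them. Nnt-202, with 17 exons, took 1757 of the gene's expected counts in B6 and 3904 in CAST. Nnt-201, with 15 exons, took 273 and 579. The shares of the gene's TPM were alike in the libraries, 81.4% and 83.6% for Nnt-202 and 14.1% and 13.8% for Nnt-201. The remaining 3, Nnt-203, which ends at an earlier exon, and the retained-intron forms Nnt-204 and Nnt-205, had between 2.79 and 50.8 counts each. Nnt-201 skips exons 8 and 9 of Nnt-202, which together hold 342 bases or 114 codons, so the reading frame goes on across the skip. The joins are shown because they are what tells the forms apart: 30 bases of the exon before are in lower case and the first 30 bases of the exon after in capitals, from the GENCODE M21 transcripts.
Nnt-201, exon 7 to exon 10: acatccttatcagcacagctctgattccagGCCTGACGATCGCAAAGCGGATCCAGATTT
Nnt-202, exon 7 to exon 8: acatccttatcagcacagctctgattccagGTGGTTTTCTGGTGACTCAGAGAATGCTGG
Nnt-202, exon 9 to exon 10: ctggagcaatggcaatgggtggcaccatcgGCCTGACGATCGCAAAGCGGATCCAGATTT
Exon numbers are those of Nnt-202. The log2 ratios of Nnt-202 and Nnt-201 were 0.86 and 0.80, close to the 0.83 of the whole gene. These are reads assigned to annotated forms, which lack the exons known to be deleted in C57BL/6J. Whether CAST islets make either form as annotated was not tested.

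**Figure D3:**
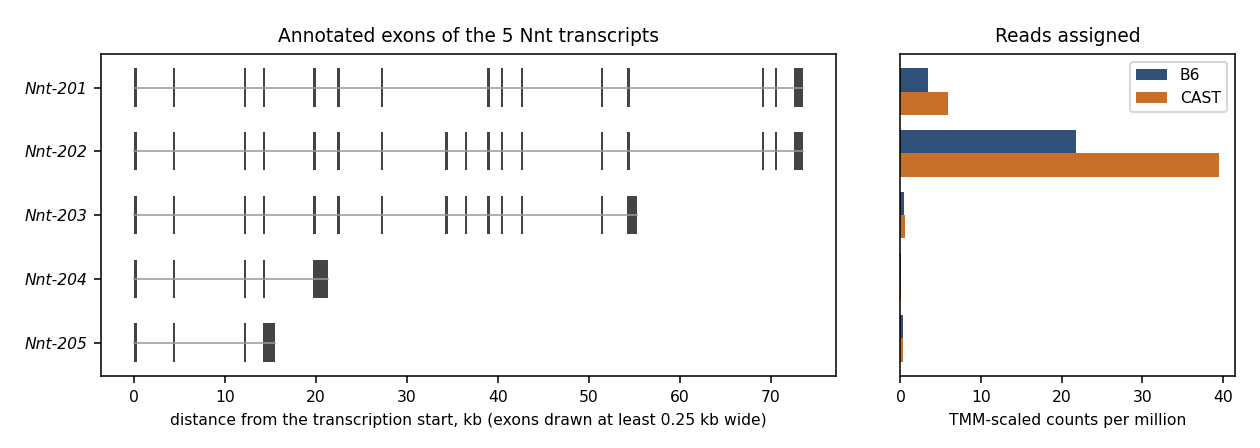
Left, annotated exons (boxes) of the 5 Nnt transcripts against the distance from the transcription start in kb; right, library-scaled counts assigned to each in B6 and CAST. Nnt-202 holds most reads in both libraries and Nnt-201, which lacks exons 8 and 9, the next most.

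The glutathione peroxidases reduce peroxides at the cost of glutathione. In GPX1 to GPX4 the reacting residue is selenocysteine, read from a TGA codon that would otherwise end the protein, whereas GPX7 and GPX8, enzymes of the endoplasmic reticulum, carry a cysteine there. The codon and 15 bases on each side, with the codon in capitals, show the difference within an otherwise similar stretch (GENCODE M21 coding sequences).
Gpx1: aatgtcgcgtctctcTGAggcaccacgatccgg
Gpx2: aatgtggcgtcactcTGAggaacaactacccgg
Gpx3: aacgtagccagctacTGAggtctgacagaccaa
Gpx4: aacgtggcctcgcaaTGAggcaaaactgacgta
Gpx7: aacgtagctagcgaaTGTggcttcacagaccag
Gpx8: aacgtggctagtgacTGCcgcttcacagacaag
The TGA is codon 47 in Gpx1 and codon 73 of 226 in Gpx3, and the cysteine codon is TGT in Gpx7 and TGC in Gpx8.

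Ratios in this family ran from -1.07 to 1.00. Gpx3, which encodes the glutathione peroxidase of plasma and extracellular fluid (chr11:54902453-54910377, plus strand), had 65940 counts in B6 and 38349 in CAST. Its log2 ratio was -1.07 (interval -1.09 to -1.05), and it ranked 61 by TPM among all genes in B6 and 193 in CAST. Its neighbours Hint1 and Tnip1 had ratios of the other sign, 0.48 and 0.44. Gpx4, which reduces lipid peroxides within membranes and is known as the guard against ferroptosis, went the other way from Gpx3, with 5151 counts in B6 against 10444 in CAST (log2 ratio 0.73, interval 0.68 to 0.78). Gpx1, the abundant cytosolic and mitochondrial form, had 4160 and 5055 counts and a log2 ratio of -0.01 (interval -0.07 to 0.05). The level of Gpx1 was 0.728 times that of Gpx4 in B6 and 0.439 times in CAST, both in TPM.

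The remaining 3 peroxidases were low. Gpx2, known from gut epithelium, had 841 counts in B6 against 897 in CAST (log2 ratio -0.20, interval -0.33 to -0.06). A processed pseudogene of near-identical sequence, Gpx2-ps1, had 0 counts in B6 against 104 in CAST, and with these added the ratio of Gpx2 was -0.04. Gpx8 had 99 and 242 counts, a log2 ratio of 1.00 (interval 0.66 to 1.35) that came to 1.99-fold and so lay just inside 2-fold. Gpx7 had 95 and 96 counts, and at this depth its log2 ratio of -0.27 had an interval from -0.70 to 0.15. In TPM both stayed under 3, with Gpx8 at 1.63 in B6 and 2.57 in CAST.

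The superoxide dismutases turn superoxide into hydrogen peroxide and differ by place. Sod1 of the cytosol stood far above Sod2 of the mitochondrial matrix in level, at 291 against 20.9 TPM in B6 and 279 against 20.3 TPM in CAST. The ratio of their levels was 14.0 in B6 and 13.7 in CAST. In counts, Sod1 had 10671 and 15935 and Sod2 5056 and 7650, and their log2 ratios were alike at 0.29 and 0.31. The extracellular Sod3 had 177 and 257 counts, with a log2 ratio of 0.25 and an interval of -0.03 to 0.53. All 3 were above 0 with TMM or total counts and 0 of 3 were above 0 in TPM, while all 3 lay above the median of all genes on each scale.

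The thioredoxins pass electrons to peroxiredoxins and other proteins, and their reductases are selenoproteins whose TGA codon stands next to the end of the reading frame. The TGA is codon 498 of 499 in Txnrd1 and codon 526 of 527 in Txnrd2, shown in capitals with what precedes and follows it up to the last codon.
Txnrd1: ctccagtctggctgcTGAggt
Txnrd2: actgtgactggttgcTGAggc
With TMM the cytosolic pair was somewhat higher in CAST. Txn1 had 2685 counts in B6 against 4393 in CAST (log2 ratio 0.42), and Txnrd1 had 9091 and 15218 (0.45). The mitochondrial pair lay closer to equality on this scale, with 3453 and 5036 counts for Txn2 (0.26) and 934 and 1271 for Txnrd2 (0.16). The log2 ratios of TPM were 0.07 for Txn1 and 0.11 for Txnrd1, and -0.10 for Txn2 and -0.07 for Txnrd2. In TPM the reading was 42.7 and 44.9 for Txn1 and 43.7 and 40.6 for Txn2, so the levels of the thioredoxins were near each other in both libraries.

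Txnip, whose product binds reduced thioredoxin and also restrains glucose uptake, was the redox gene with the most counts in both libraries. It had 97579 counts in B6 and 56143 in CAST, a log2 ratio of -1.09 (interval -1.10 to -1.07). By TPM it ranked 77 among all genes in B6 and 244 in CAST. The level of Txnip was 13.8 times that of Txn1 in B6 and 4.64 times in CAST, in TPM. The fully spliced forms Txnip-201 and Txnip-202 had log2 ratios of -1.10 and -1.05. The retained-intron forms differed more: Txnip-203 had 564 counts in B6 against 84.6 in CAST (-3.02), and Txnip-205 had 340 and 61.5 (-2.75). The antisense gene Gm15441, which overlaps Txnip, had 163 counts in B6 against 67 in CAST (log2 ratio -1.57), and without a stated strand setting its reads cannot be told apart from those of Txnip. The neighbour Polr3gl had a log2 ratio of -0.19. On the other side Fcgr1, 264 kb away with 44 and 65 counts, had 0.27 (interval -0.30 to 0.86).

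Txnip is known as a direct target of ChREBP and MondoA, transcription factors that respond to glucose and bind a carbohydrate response element of E-box-like half-sites spaced by 5 bases. The letters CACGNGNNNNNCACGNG were searched on both strands in windows from 250 bases before to 50 after each RefSeq start (GRCm38.p6), a search chosen after the values were seen. Txnip was 1 of 30 members with a window that held them, and 15 of 27025 genes did, or 0.0555%. The 250 bases before the Txnip start, chr3:96557707-96557956 on the plus strand, are printed with the match in capitals; it begins 85 bases before the start.
Txnip promoter: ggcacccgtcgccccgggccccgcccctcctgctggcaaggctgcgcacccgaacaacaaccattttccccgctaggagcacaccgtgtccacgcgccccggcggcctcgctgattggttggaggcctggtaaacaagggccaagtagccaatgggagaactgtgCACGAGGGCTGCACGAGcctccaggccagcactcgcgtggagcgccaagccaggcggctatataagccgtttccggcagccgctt
A match of letters is a description and no measure of binding. Of 5 genes of this system listed after the values were seen, Mlxipl, which encodes ChREBP, had 49630 counts in B6 against 31748 in CAST (log2 ratio -0.93). Arrdc4, the arrestin gene closest in kind to Txnip, had 1628 and 1238 (-0.68), and Mlxip, which encodes MondoA, had a ratio of -0.37. The other two did not share this sign: the partner Mlx had a log2 ratio of 0.49, and Pklr, a textbook ChREBP target, had 1253 and 3475 counts (1.18).

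The peroxiredoxins, the most abundant peroxide-removing enzymes of most cells, varied little. The cytosolic Prdx1 had 9415 counts in B6 against 13005 in CAST (log2 ratio 0.18), Prdx2 had 7964 and 10482 (0.11), and Prdx6, which reduces oxidised phospholipids, had 9361 and 11692 (0.03, interval -0.01 to 0.07). The mitochondrial Prdx3 had 2578 and 3382 counts (0.10). Larger ratios came from Prdx4 of the endoplasmic reticulum, where it takes part in oxidative folding, with 1088 and 2002 counts (0.59, interval 0.48 to 0.70), and from Prdx5 with 4024 and 6806 (0.47). Srxn1, whose product sulfiredoxin revives over-oxidised peroxiredoxins, had 4330 counts in B6 against 8889 in CAST (0.75, interval 0.70 to 0.80). Most of these counts, 3983 in B6 and 8434 in CAST, belonged to a transcript that the annotation used here does not hold. The annotated coding form Srxn1-201 had 311 and 406 counts (0.10, interval -0.12 to 0.31). All 7 genes of this group lay above the median of all genes on each scale. Against 0, all 7 were above with TMM, 4 with total counts and 3 (Prdx4, Prdx5 and Srxn1) in TPM.

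In level, Prdx1 led with 115 TPM in B6 and 105 TPM in CAST, and Prdx2 followed with 89.5 and 75.9 TPM. Catalase, the peroxisomal enzyme that removes hydrogen peroxide without NADPH and named for its known low level in beta cells, was at 3.94 and 2.83 TPM. That level was 0.0344 times that of Prdx1 in B6 and 0.0269 times in CAST, and 0.0590 and 0.0542 times that of Gpx1. The log2 ratio of Cat between the libraries was -0.13.

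Glutathione is built by glutamate-cysteine ligase, made of a catalytic subunit (Gclc) and a modifier subunit (Gclm), then by glutathione synthetase (Gss), and glutathione reductase (Gsr) restores it with NADPH. The modifier subunit was lower in CAST, with 5809 counts in B6 against 5270 in CAST (log2 ratio -0.43, interval -0.48 to -0.38), while the catalytic subunit had 2256 and 2809 (0.03, interval -0.05 to 0.11). The level of Gclc was 0.261 times that of Gclm in B6 and 0.371 times in CAST, in TPM. Gss had 1366 and 1702 counts (0.03) and Gsr 3571 and 4036 (-0.11, interval -0.18 to -0.05). Against 0, 2 of 4 genes were above with TMM and 0 of 4 with total counts or in TPM.

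Nqo1 and Nqo2 reduce quinones, and Hmox1 and Hmox2 break down haem. Nqo1 (chr8:107388225-107403206, minus strand) had 494 counts in B6 and 1651 in CAST, the highest ratio of the set at 1.45 (interval 1.31 to 1.60). In TPM it was at 5.18 in B6 and 11.1 in CAST, which is 2.15-fold, or a log2 ratio of 0.97 with 1 added to each level. Its neighbours Nfat5 and Nob1 had log2 ratios of -0.05 and 0.15. Hmox1, the inducible haem oxygenase, had 578 and 1104 counts (0.64, interval 0.50 to 0.79).

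The other two genes of this pair of families went the other way. The constitutive Hmox2 had 3851 counts in B6 against 3871 in CAST (log2 ratio -0.28), and Nqo2 had 1355 and 1168 (-0.50, interval -0.62 to -0.39). Both overlap a gene on the opposite strand with which they share sequence: Hmox2 shares 895 aligned bases with Cdip1, and Nqo2 shares 764 with Serpinb6a. Cdip1 had 6307 and 7591 counts and Serpinb6a 4576 and 7514. With the counts of the overlapping gene added, the ratio of Hmox2 was -0.11 and that of Nqo2 turned to 0.26, so the direction of Nqo2 differs between these sums.

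One source of NADPH for these enzymes is the pentose phosphate pathway. Its entry enzyme G6pdx had 2012 counts in B6 and 2468 in CAST, a log2 ratio of 0.01 (interval -0.08 to 0.09). Pgd, the next NADPH-making step, had 2679 and 3985 (0.28, interval 0.21 to 0.36). Their levels stood at 12.6 and 9.69 TPM for G6pdx and 19.4 and 18.7 TPM for Pgd.

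The glutaredoxins remove glutathione from protein thiols, and Msra repairs oxidised methionine. Glrx had 4089 counts in B6 against 7057 in CAST (log2 ratio 0.50, interval 0.44 to 0.55), and Msra had 659 and 1236 (0.62, interval 0.48 to 0.76). Both were above 0 on all 3 scales. The mitochondrial Glrx2 had 1603 and 2022 counts (0.05, interval -0.05 to 0.14), which was above 0 with TMM only. Its most abundant transcript by TPM was Glrx2-201, annotated as a target of nonsense-mediated decay.

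Nfe2l2, which encodes NRF2, had 3219 counts in B6 against 5069 in CAST (log2 ratio 0.37, interval 0.30 to 0.43). Keap1 had 5535 and 7200 (0.09, interval 0.04 to 0.14). The level of Keap1 was 1.12 times that of Nfe2l2 in B6 and 0.914 times in CAST, in TPM. There were 11 members known from textbooks as NRF2 targets (Nqo1, Gclc, Gclm, Txnrd1, Srxn1, Hmox1, Prdx1, Txn1, Gsr, G6pdx and Pgd). Of these, 8 lay above the median of all genes, and their median log2 ratio was 0.28. In CAST 1 of 11 (9.09%) was at least 2-fold higher, where 7.18% of all genes were. For the 24 members outside this group, NRF2 and KEAP1 left out, 17 lay above the median of all genes and the median was 0.13. In the whole set 27 of 37 lay above it. A list of 20 other textbook NRF2 targets, outside the set, had a median of 0.04. Nqo1, Srxn1 and Hmox1 headed the NRF2 group, at 1.45, 0.75 and 0.64, and Gclm closed it at -0.43.

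NRF2 binds the antioxidant response element, whose core letters are TGACNNNGC. These were found on either strand in the start windows of 8 of the 30 members with a RefSeq promoter, or 26.7%, against 3781 of 27025 genes, or 14.0%. The members had 43 windows, of which 18.6% held the letters, against 12.4% of all windows. The matches of Pgd and Srxn1 lay after the start. The other 6, all before the start, are shown with the core in capitals and up to 25 bases on each side, written 5′ to 3′ on the strand of the gene. A match on the opposite strand reads GCNNNGTCA here.
Gclm, chr3:122245398-122245456, plus strand: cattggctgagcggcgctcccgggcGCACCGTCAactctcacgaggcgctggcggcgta
Prdx1, chr4:116685441-116685499, plus strand: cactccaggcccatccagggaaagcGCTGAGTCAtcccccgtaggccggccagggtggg
Txnrd1, chr10:82859089-82859147, plus strand: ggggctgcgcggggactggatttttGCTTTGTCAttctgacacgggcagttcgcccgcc
G6pdx, chrX:74428904-74428962, minus strand: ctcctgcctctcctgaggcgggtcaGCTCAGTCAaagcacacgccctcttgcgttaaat
Sod1, chr16:90220681-90220739, plus strand: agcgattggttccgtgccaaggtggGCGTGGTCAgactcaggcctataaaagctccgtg
Nfe2l2, chr2:75704870-75704913, minus strand: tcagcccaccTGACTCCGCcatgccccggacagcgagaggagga
The median log2 ratio was 0.29 over the 8 genes with the letters and 0.10 over the 22 without. The 8 genes ran from Gclm at -0.43 to Srxn1 at 0.75. The 3 genes past 2-fold, Nqo1, Gpx3 and Txnip, had no match in their windows, which says only that these letters are not there.

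Further groupings that played no part in choosing the genes divided the ratios little. The 6 members of the mitochondrion (Nnt, Sod2, Txn2, Txnrd2, Prdx3 and Glrx2) had a median log2 ratio of 0.21. All 6 lay above the median of all genes on each scale, as did 27 of 37 in the whole set with TMM. The 26 members of the cytosol, nucleus or several places had a median of 0.14, with 18 above that median with TMM. Gpx1, cytosolic and mitochondrial, was counted among these 26 and lay below it. The 5 members of the endoplasmic reticulum or outside the cell had a median of 0.25 but ran from -1.07 for Gpx3 to 1.00 for Gpx8. The 6 selenoproteins had a median of 0.07 and the other 31 genes one of 0.25.

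Of the 37 genes, 24 had several transcripts with a row, and in 24 of 24 the same transcript was the most abundant in both libraries. With 100 or more counts asked in each library, this held for 23 of 23 of them and for 91.9% of 8981 genes overall. The largest shifts in its share of the gene's TPM were an increase in CAST from 60.9% to 71.1% for Glrx2 and from 71.8% to 82.0% for Prdx2, and a decrease from 87.4% to 78.3% for Nqo2 and from 70.0% to 61.0% for Txnrd2. Gpx7 shifted by 10.5 points, on 2.27 counts of its minor form. Within Prdx1 the short coding form Prdx1-201 had 0.12 counts in B6 and 515 in CAST, or 8.73% of the gene's TPM in CAST, while Prdx1-204 led in both at 41.2% and 38.9%. RSEM divides reads among similar transcripts and the uncertainty of this division was not part of the tables, so these shares carry no error.

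**Figure D4:**
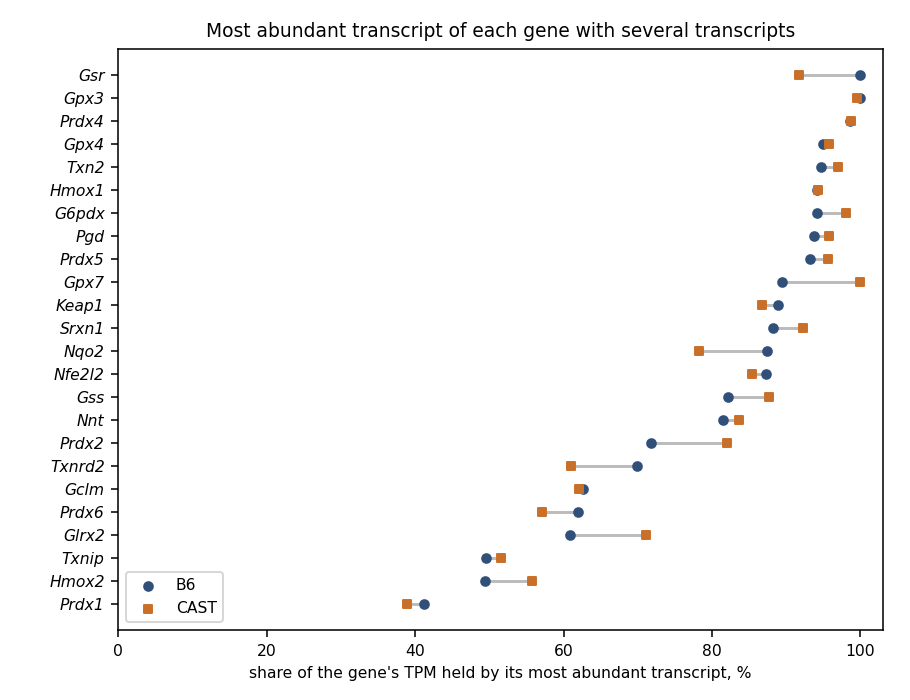
Share of each gene's TPM held by its most abundant transcript, in %, in B6 (circles) and CAST (squares), for the 24 genes with several transcripts; grey lines join the libraries. Most symbols lie close together, and Glrx2, Prdx2, Nqo2, Txnrd2 and Gpx7 show the longest lines.

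Across 9 further lists of the same pathways, 139 of 160 listed genes had 100 or more counts. Of these, 11 were higher in CAST by 2-fold or more and 3 the other way, which is 7.91% and 2.16% against 7.18% and 5.99% of all genes, around a median log2 ratio of 0.06. Most of the genes past 2-fold were in the list of glutathione conjugation, transport and turnover, where 8 of 28 (28.6%) were higher in CAST and 1 (3.57%) in B6. Among them was Gstm7, a glutathione S-transferase, with 199 counts in B6 against 2694 in CAST (log2 ratio 3.47). Cbs and Cth, which turn homocysteine into cysteine, the limiting amino acid of glutathione, had ratios of 1.77 (3494 and 14542 counts) and 1.98 (34 and 166 counts). Gstt3 (2.22), Ggt1 (1.62), Chac2 (1.10) and Gstm2 (1.08) were the others higher in CAST, and Gstm5 (-1.12) the gene higher in B6. Gstp2, which is counted in the 8 and the 11, had 6 and 135 counts. Its ratio of 4.09 came to 0.11 when its near-identical copy was added. Both Cth and Gstp2 reached the count minimum through their CAST counts.

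The lists nearest to NRF2 were mixed. Maff, a small MAF protein that pairs with NRF2, had 2345 counts in B6 against 7115 in CAST (log2 ratio 1.31), the 1 gene of 13 NRF2 partners and regulators (7.69%) past 2-fold. Of 20 other textbook targets, 0 were at least 2-fold higher in CAST and 2 (10%) were at least 2-fold higher in B6: Aox1, an aldehyde oxidase, with 1641 and 573 counts (-1.81), and the transporter Abcc2 with 166 and 74 (-1.45). The remaining genes past 2-fold were Aldh1l1 (1.90, 35 and 161 counts) among 18 further NADPH-supplying genes, and Ncf4 (1.17, 31 and 86 counts), a subunit of the phagocyte oxidase, among 8 producers of superoxide and peroxide.

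Of the other lists, 0 of 7 genes of peroxide and superoxide handling, 0 of 28 thioredoxin-fold and disulfide enzymes, 0 of 3 methionine sulfoxide reductases and 0 of 20 further genes of selenoproteins and their synthesis were 2-fold apart, where 7.18% of all genes were in CAST and 5.99% in B6. The extremes of these lists were Park7 (0.47) and Ccs (0.30), the copper chaperone of SOD1, against Oxr1 (-0.74) and Sesn1 (-0.42); Dnajc10 (0.59) and Glrx3 (0.35) against Glrx5 and Txndc12 (both -0.56); and Sephs2 (0.74) and Selenof (0.59) against Dio1 (-0.75) and Sepsecs (-0.72). Msrb1 was at 0.61, Msrb3 at 0.16 and Msrb2 at -0.24. Of the 74 genes that flank the 37 on the chromosomes, 6 (8.11%) were past 2-fold in CAST and 3 (4.05%) in B6, close to the shares of all genes, with a median of 0.09.

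**Figure D5:**
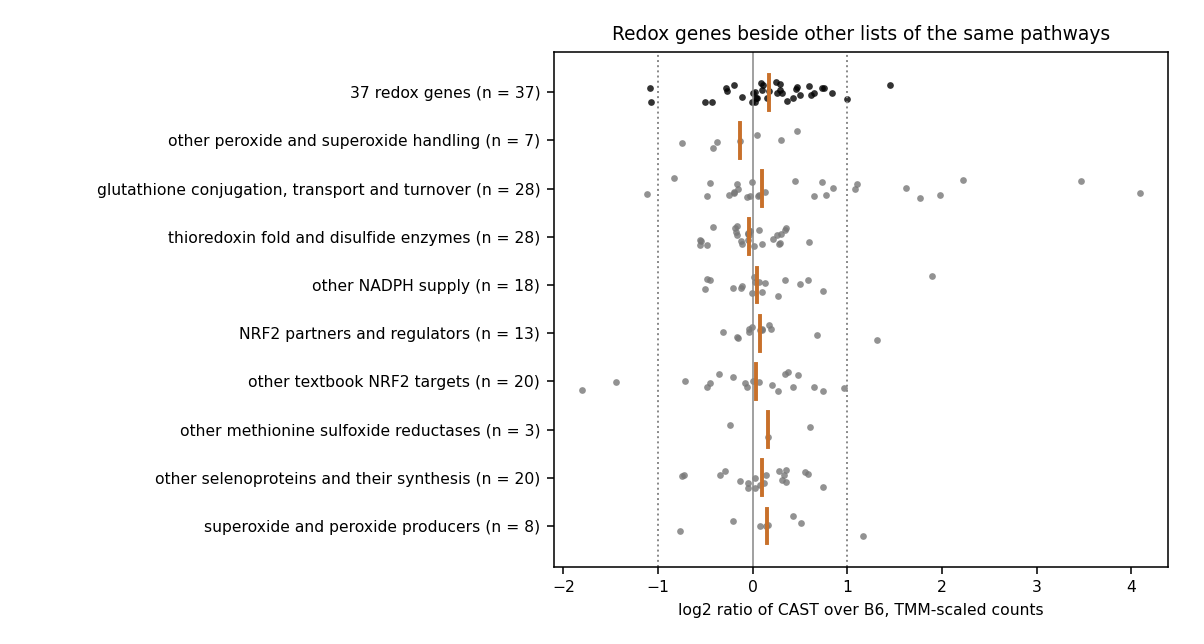
Log2 ratio of CAST over B6 (x axis, TMM-scaled counts) of each gene with 100 or more counts, for the 37 redox genes (black) and 9 further lists (grey); vertical bars are medians, dotted lines mark 2-fold, and points are spread vertically for sight only. The glutathione conjugation list holds the points farthest to the right.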

How the data were processed

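Expected counts per Ensembl transcript were made by the authors with RSEM (build GRCm38), per the submitters' processing notes. As deposited, the next value is the fraction of all transcripts; it sums to 1 in each library and was multiplied to TPM. The aligner, versions, annotation release, read layout and strand setting were not given in the sources used here, so opposite-strand genes may share reads. CAST reads carry sequence variants against the build used. Counts were summed per gene and rounded, and 37607 of 38924 gene IDs were matched to GENCODE M21 (unmatched IDs: 0.176% of B6 and 0.172% of CAST counts). TMM factors from edgeR 4.0.16 (R 4.3.3) were 1.056 for B6 and 0.947 for CAST. Log2 ratios had 0.5 added to each count before scaling, and genes needed 100 counts over both libraries. Intervals are 95% exact Clopper-Pearson intervals of the fraction of each gene's counts that CAST holds (scipy 1.17.1). They hold no variation between mice or pools, and they treat each read as a separate molecule, so even counting error may be larger. Near-identical copies were found with minimap2 2.31 (95% identity over 200 bases and 50% of the shorter transcript). This rule also took in Cdip1 and Serpinb6a, other coding genes that overlap Hmox2 and Nqo2 on the opposite strand. Promoters came from the RefSeq table of GRCm38.p6, which matched 30 of 37 genes.

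The members and lists were chosen with earlier results of these data known. Named were all 37 genes; of each other list the genes at least 2-fold apart or, with none, the 2 highest and 2 lowest; and copies with 100 or more counts. The glucose-sensing genes and their response element, the overlapping and flanking genes, the groupings by place, selenocysteine and NRF2, Cat, and the sums without Gpx3 and Txnip were chosen after values were seen. Alternatives were DESeq2 1.42.0 size factors, total counts, TPM with a pseudocount of 1 or none (none was added later), other count minimums, and copies summed or left out. The protein data of the study were not analysed here.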

Additional observations from a re-analysis of the deposited data

How the results depend on the processing

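With 1 library per strain, no value has a replicate error, and differences between mice, pools and strains cannot be told apart. No paired analysis was possible because each strain has 1 library. DESeq2 size factors and count minimums of 1, 20 or 1000 left the numbers of genes past 2-fold at 1 and 2, as did leaving out the 5 genes with a near-identical copy or summing copies. Other scalings shifted all genes: their median ratio, 0.02 with TMM, became -0.14 with total counts, -0.26 with TPM + 1 and -0.33 with plain TPM. The median of the 37 genes, 0.18 with TMM, became 0.020 with total counts and -0.10 with TPM + 1 or plain TPM (an alternative added after the values were seen). With TPM + 1, 0 genes were at least 2-fold higher in CAST, since Nqo1 came to 0.97; with plain TPM it stayed past 2-fold at 1.11, so the added 1 accounts for that loss. Nnt came to 0.68 with total counts, 0.44 with TPM + 1 and 0.48 with plain TPM. Of the other 36 genes, 9 changed sign with total counts and 15 in TPM, and none of the genes past 2-fold did. Summing at 95% identity turned 1 gene, Nqo2 (to 0.26), through the counts of the overlapping gene Serpinb6a. At 90% Glrx2 also turned (to -0.25), through Mpp7, another coding gene that shares 348 aligned bases and had 2324 counts in B6 and 2012 in CAST. The share of counts held by the set was 0.387% in B6 and 0.276% in CAST with copies summed, a sum that includes the overlapping genes Cdip1 and Serpinb6a. It was 0.261% and 0.175% as a share of TPM, 0.501% and 0.375% of counts outside hormone and acinar genes, and 0.160% and 0.171% without Gpx3 and Txnip. Counts under 300 in each library limit Gpx7, Gpx8 and Sod3.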
